A study of Mus musculus with 8 samples.

Results

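Endothelial cells line the vessels of the heart and, as the endocardium, the inner surface of its chambers. This account describes 10 genes that mark these cells in neonatal mouse hearts: Pecam1, Cdh5, Esam, Tie1, Tek, Emcn, Plvap, Eng, Vwf and Egfl7. They were taken by gene name from a table of 54532 genes, each name matched 1 row, and all 10 were among the 13029 genes with a mean of at least 1 FPKM over the 8 libraries that entered the tests. FPKM is the number of reads of a gene scaled by its length and by the reads of the library. Hearts were collected at postnatal day 4, and the labels call the controls littermates of the cHET mice without saying which libraries share a litter. The control hearts (4 libraries) had the genotype Mrps5 fl/+, with 1 floxed allele of Mrps5 and no Cre (Mrps5 belongs to the mitochondrial small ribosomal subunit). The cHET hearts (4 libraries) had the genotype Mrps5 fl/+; Myh6-Cre. In these, the promoter of the cardiomyocyte gene Myh6 drives Cre, which removes 1 allele of Mrps5 late in embryonic life. The floxed allele is thus shared by both groups, and no group carries Cre alone, so what Cre itself does and what the lost allele does cannot be told apart. The promoter drives Cre in cardiomyocytes, so the genes described here belong to cells other than those that the Cre line addresses. The series calls the 4 libraries of a group biological replicates.

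As background, vascular endothelial cells hold together through junctions built on VE-cadherin (Cdh5), PECAM-1 and ESAM, and the receptors Tie1 and Tie2 (Tek) keep these junctions stable in response to angiopoietins. Endocardial cells carry the same junction proteins. Endomucin (Emcn), PLVAP and von Willebrand factor differ between capillaries, veins and endocardium, so the 10 genes mark overlapping but unequal sets of cells. In RNA from heart tissue, fewer endothelial cells and less RNA of a gene per cell cannot be told apart.

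RefSeq promoter windows of GRCm38.p6, from 250 bases before to 50 after a start site, were matched by symbol for 5 of the 10 genes, namely Egfl7, Eng, Emcn, Tek and Tie1, in 7 windows. ETS-family factors, which bind a GGAA core, are known regulators of endothelial genes, so GGAA was searched on both strands. The windows of 3 genes are shown 5′ to 3′ on the gene's strand: Emcn, whose values separated the groups below, and the receptor pair Tek and Tie1. Capitals mark GGAA or its complement TTCC.
Emcn, chr3:137340828-137341127, plus strand: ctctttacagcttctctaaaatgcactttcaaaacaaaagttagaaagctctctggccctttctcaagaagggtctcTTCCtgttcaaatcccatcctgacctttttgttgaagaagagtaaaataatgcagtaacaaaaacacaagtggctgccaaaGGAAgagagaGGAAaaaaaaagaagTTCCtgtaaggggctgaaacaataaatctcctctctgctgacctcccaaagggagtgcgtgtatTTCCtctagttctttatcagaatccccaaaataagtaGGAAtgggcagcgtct
Tek, chr4:94739039-94739338, plus strand: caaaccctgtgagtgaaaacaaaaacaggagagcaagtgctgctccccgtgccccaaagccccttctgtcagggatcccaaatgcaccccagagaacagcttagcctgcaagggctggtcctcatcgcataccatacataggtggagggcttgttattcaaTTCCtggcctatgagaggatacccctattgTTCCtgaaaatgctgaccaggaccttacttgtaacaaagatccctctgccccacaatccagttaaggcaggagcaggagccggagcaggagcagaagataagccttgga
Tie1, chr4:118489800-118490099, minus strand: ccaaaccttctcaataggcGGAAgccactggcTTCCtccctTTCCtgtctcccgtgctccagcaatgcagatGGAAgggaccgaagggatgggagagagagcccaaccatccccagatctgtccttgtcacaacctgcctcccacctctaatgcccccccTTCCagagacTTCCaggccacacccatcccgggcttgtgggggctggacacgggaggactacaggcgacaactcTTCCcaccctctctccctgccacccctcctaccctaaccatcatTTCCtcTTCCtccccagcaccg
The Tie1 window held 9 matches, the Emcn window 6 and the Tek window 2. The windows not shown held 5, 4 and 1 matches for Egfl7 and 4 for Eng. Of 32851 windows of the same length in the table, 96.0% held at least 1 match, 15.7% at least 6 and 1.59% at least 9, with a median of 3. The longer string CAGGAA, which contains the core, occurred 2 times in the Emcn window, 2 times in the Tek window and 1 time in the Tie1 window, and 30.6% of all windows held it. In the windows not shown it occurred 2, 1 and 0 times for Egfl7 and 1 time for Eng. A match describes the letters alone and is not a measured binding site.

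The libraries held 15490622 to 19234777 reads assigned to genes, as rebuilt from FPKM and gene length, and each of the 10 genes rested on 501 to 6138 reads per library. At these depths replicates of a group could differ by more than counting error. For Vwf, the 95% exact Poisson interval, which covers counting error only, was 3.35 to 3.83 FPKM in control 1 and 7.40 to 8.08 FPKM in control 2. Mrps5 had 11.6, 6.27, 10.1 and 5.15 FPKM in control 1 to 4 and 6.84, 7.12, 7.0 and 7.68 FPKM in cHET 1 to 4 (exact two-sided permutation test, n = 4 per group, p = 0.486, where the smallest p is 0.0286). Every library labelled cHET had more Mrps5 than the libraries labelled control 2 and control 4, and all directions below follow the labels. Cardiomyocyte markers summed to 17271 to 21371 FPKM in control and 17225 to 20352 FPKM in cHET. Control 1 and control 2 stood apart from the other libraries. Their short protein-coding genes (up to 2732 bases) had a median log2 deviation from the gene mean of 0.079 and 0.20, and their long ones (over 6701 bases) had -0.084 and -0.13. In the other 6 libraries these medians were -0.13 to -0.0046 for the short genes and -0.012 to 0.078 for the long ones.

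None of the 10 genes passed the test between the groups. Values were compared as log2(FPKM + 1) with limma, and p-values were adjusted over all 13029 genes at a threshold of 0.05. By that rule 0 of the 10 were higher and 0 were lower in cHET, where 0.023% of all genes were called higher and 0% lower, and limma voom on the rebuilt reads called 0 of the 10 as well. A p that misses the threshold does not show that the levels were equal. At an unadjusted p under 0.05, limma gave 4 of the 10 as lower (Emcn, Plvap, Tek and Egfl7) and 0 as higher, beside 3.92% lower and 5.03% higher among all genes. The count of 4 was 1 without control 2, where 3.68% of all genes were lower by that rule. It was 6 under quantile normalization, library weights or voom (4.47%, 5.53% and 4.18% of all genes) and 7 with the trend on gene length removed (4.47%). The count was 3 under TPM (2.17%) and with libraries scaled without the mitochondrial genome (2.49%). It was also 3 without control 3, control 4, cHET 2, cHET 3 or cHET 4 (2.35% to 7.3%). Without control 4, Cdh5 was higher at that threshold, at 0.58 (limma, unadjusted p = 0.0268). In 8 of the 10 the log2 fold change was below 0, as for 47.9% of all genes, and the median of the 10 was -0.24 beside 0.0086 over all genes. Emcn alone had every cHET library below every control library, a separation found in 2% of all genes as lower and 2.74% as higher. That count changed with the libraries: 5 of the 10 had separate groups without control 1, beside 2.88% of all genes as lower, and 3 without cHET 1, beside 3.88%. It was 2 without control 4, cHET 2 or cHET 4, beside 5.39%, 3.85% and 2.56%, and all these genes were lower in cHET.

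**Figure D1:**
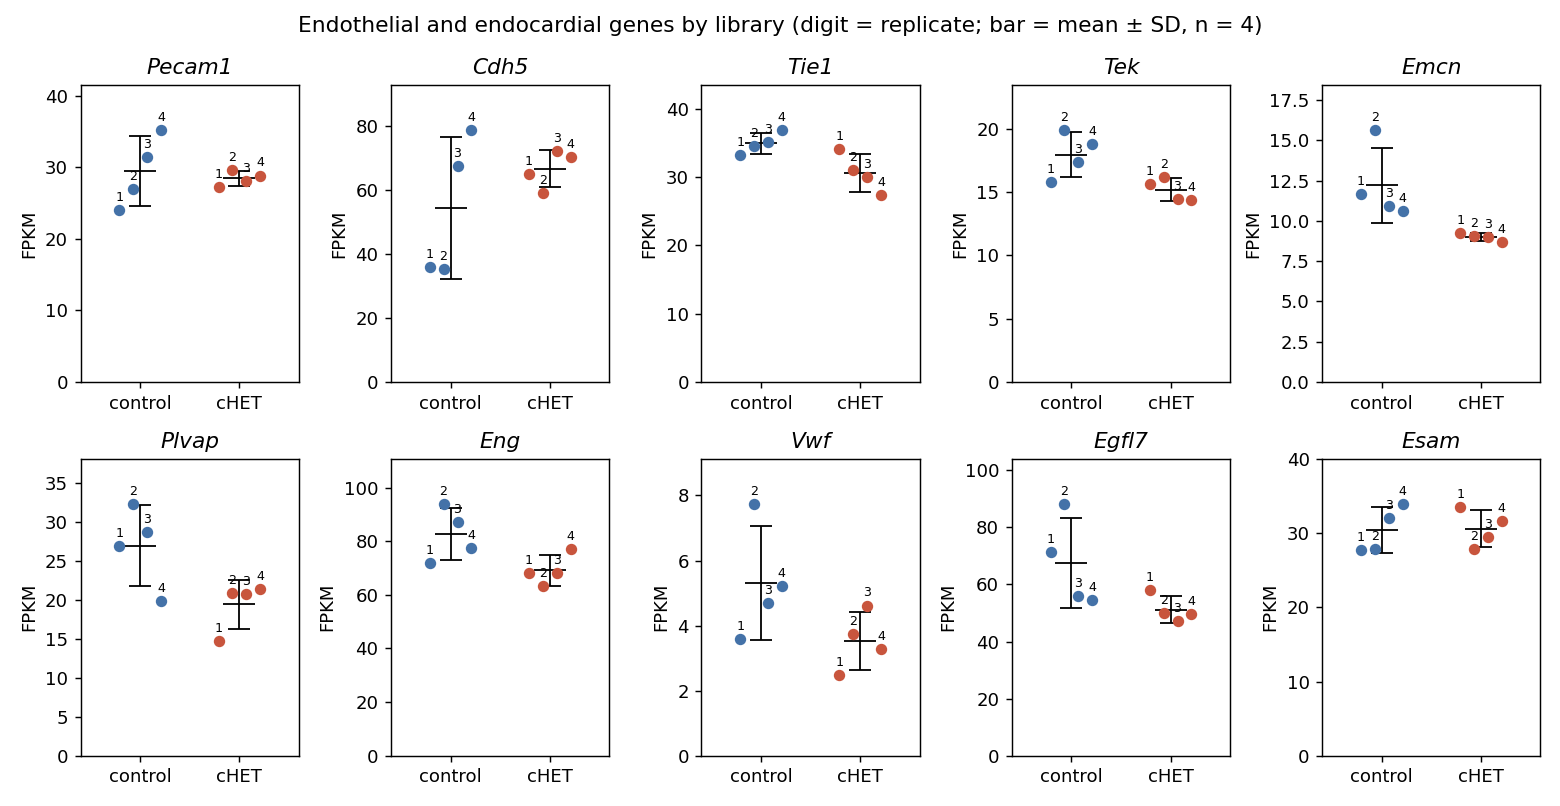
FPKM of each of the 10 genes (vertical axes, linear from 0) in the 4 control (blue) and 4 cHET (red) libraries. Digits are replicate numbers and bars are mean ± SD. The cHET values of Emcn lie at 8.68 to 9.28 FPKM, below all control values, and Cdh5 is at 35.9 and 35.2 FPKM in control 1 and 2, below every other library.

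The genes of the endothelial junction gave no common direction over all 8 libraries. Cdh5 (ENSMUSG00000031871, GRCm38 chromosome 8, 104101625 to 104144511) encodes VE-cadherin, the adhesion protein of endothelial adherens junctions. It stood at 35.9, 35.2, 67.6 and 78.8 FPKM in control 1 to 4 and at 65.1, 59.2, 72.1 and 70.3 FPKM in cHET 1 to 4. Control 1 and control 2 were low, at about the level of each other, while control 3 and control 4 lay within or above the cHET range. The log2 fold change was 0.38 with limma (adjusted p = 0.669, SE 0.255), and it was 0.21 without control 1, 0.20 without control 2, 0.58 without control 4 and -0.13 without control 1 and control 2. Cdh5 has a gene length of 4203 bases in the table, close to the median of 4368 for the protein-coding genes tested. With each library's trend on gene length removed, control 1 and control 2 lay 0.65 and 0.70 below the gene's mean on the log2 scale, and the other 6 libraries 0.023 to 0.42 above it. The cause of the low Cdh5 values in control 1 and control 2 was not tested. Cdh5 overlaps the antisense gene Gm29682, whose reads cannot be told apart from its own unless the counting used strand.

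Pecam1 (ENSMUSG00000020717, chromosome 11, 106654217 to 106750628) encodes an adhesion protein of endothelial cells, platelets and leukocytes. Its values were 24.0, 27.0, 31.5 and 35.2 FPKM in control and 27.3, 29.6, 28.1 and 28.9 FPKM in cHET. The cHET values lay inside the control range, with a log2 fold change of -0.033 with limma (adjusted p = 0.933, SE 0.117). Without control 1 and control 2 it was -0.22, and every cHET value lay below control 3 and control 4. Esam (ENSMUSG00000001946, chromosome 9, 37528078 to 37538319), which encodes an adhesion molecule of tight junctions in endothelium and platelets, had 27.8, 27.9, 32.0 and 34.0 FPKM in control and 33.5, 27.9, 29.5 and 31.6 FPKM in cHET. The groups covered nearly the same range, and the log2 fold change was 0.012 with limma (adjusted p = 0.974, SE 0.0989). Without control 1 and control 2 it was -0.11, so that all 3 junction genes were below 0 in that setting. In all 3 control 4 was the highest library, and control 1 and control 2 were the lowest of the 4 controls. Leaving out the lowest controls lowers each of these fold changes by construction, so the shared sign in that setting does not show a common direction.

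The Tie receptors had lower means in cHET by amounts that did not pass the test. Tie1 (ENSMUSG00000033191, chromosome 4, 118471191 to 118490061) encodes the receptor that acts as a partner of Tie2. It had 33.2, 34.5, 35.1 and 36.9 FPKM in control and 34.1, 31.0, 30.0 and 27.3 FPKM in cHET. Only cHET 1 reached into the control range, and the log2 fold change was -0.19 with limma (adjusted p = 0.579, SE 0.0890). Tek (ENSMUSG00000006386, chromosome 4, 94739289 to 94874976) encodes Tie2, the receptor of the angiopoietins, and had 15.8, 19.9, 17.4 and 18.8 FPKM in control and 15.7, 16.2, 14.5 and 14.4 FPKM in cHET. Control 1 lay among the cHET libraries and the other controls lay above them, with a log2 fold change of -0.23 with limma (adjusted p = 0.524, SE 0.0900). The ratio of Tek to Tie1, both in FPKM, was 0.475 to 0.576 in control and 0.459 to 0.527 in cHET, and the ranges overlapped.

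Emcn and Plvap, which mark the endocardium and part of the vessels, were among the genes with the lowest fold changes of the 10. Emcn (ENSMUSG00000054690, chromosome 3, 137341067 to 137432185) encodes a sialomucin of the endothelial surface and stood at 11.7, 15.6, 10.95 and 10.6 FPKM in control and at 9.28, 9.06, 8.99 and 8.68 FPKM in cHET. The means were 12.2 ± 2.32 and 9.002 ± 0.249 FPKM (SD, n = 4). The groups did not overlap, the 4 cHET values lay close together, and control 2 was the highest library. Its log2 fold change was -0.39 with limma (adjusted p = 0.404, SE 0.115), and it was -0.27 without control 2 and -0.24 without control 1 and control 2. Emcn kept separate groups in each of the 13 other settings in which separation was counted. Plvap (ENSMUSG00000034845, chromosome 8, 71497765 to 71511752) encodes the protein of the diaphragms that close endothelial fenestrae and caveolae. It had 26.8, 32.3, 28.7 and 19.9 FPKM in control and 14.7, 20.8, 20.7 and 21.4 FPKM in cHET. Control 4 lay within the cHET range and cHET 1 below all other libraries, with a log2 fold change of -0.45 with limma (adjusted p = 0.486, SE 0.164). Plvap overlaps Gtpbp3 on the other strand, and whether the counting used strand is not given in the sources used here.

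Eng, Vwf and Egfl7 also had lower means in cHET, with groups that overlapped. Eng (ENSMUSG00000026814, chromosome 2, 32646595 to 32682669) encodes endoglin, a co-receptor for BMP and TGF-beta ligands, and was the most abundant of the 10. It had 72.0, 93.9, 87.1 and 77.5 FPKM in control and 68.1, 63.2, 68.0 and 77.0 FPKM in cHET, so that cHET 4 alone lay inside the control range. The log2 fold change was -0.25 with limma (adjusted p = 0.565, SE 0.113). Vwf (ENSMUSG00000001930, chromosome 6, 125546774 to 125686679) encodes von Willebrand factor, which captures platelets and is also made by megakaryocytes. Its values of 3.58, 7.74, 4.69 and 5.22 FPKM in control and 2.48, 3.74, 4.62 and 3.29 FPKM in cHET were the most variable of the 10 over the 8 libraries, with a highest value 3.13 times the lowest. Control 2 was the highest library and cHET 1 the lowest, and the log2 fold change was -0.46 with limma (adjusted p = 0.563, SE 0.205). It was -0.29 without control 2 and -0.34 without cHET 1. Among markers of platelets and megakaryocytes, Pf4 and Gp9 were also highest in control 2, while Itga2b was highest in control 1 and Ppbp and Gp1ba in cHET 1. The 6 markers summed to 10.6 to 25.2 FPKM in control and 9.52 to 15.6 FPKM in cHET, Gp1bb is listed at 0 in all 8 libraries, and their part in the values of Vwf was not tested.

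Egfl7 (ENSMUSG00000026921, chromosome 2, 26580014 to 26593120) encodes a secreted protein of the endothelial matrix. It had 71.5, 88.2, 55.9 and 54.5 FPKM in control and 57.9, 50.1, 47.1 and 49.6 FPKM in cHET. Control 1 and control 2 were the highest libraries, control 3 and control 4 lay below cHET 1, and the log2 fold change was -0.37 with limma (adjusted p = 0.547, SE 0.158). It was -0.23 without control 2 and -0.11 without control 1 and control 2. Egfl7 hosts the endothelial microRNA miR-126a (chromosome 2, 26591357 to 26591429, GRCm38), which lies in an intron of the 7 coding Egfl7 transcripts of GENCODE M21 that span it. Its main mature form is shown because it is made from the Egfl7 transcript; capitals mark the seed, bases 2 to 8.
mmu-miR-126a-3p: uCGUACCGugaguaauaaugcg
The Mir126a row is listed at 0 in all 8 libraries, which were made from poly-A RNA with fragments far longer than a mature microRNA, so the table carries no reading of it. The ends of Egfl7 and Eng overlap genes on the other strand, Agpat2 and Fpgs.

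Across libraries the 10 genes followed no single profile. Control 2 was the highest library for 6 of them (Tek, Emcn, Plvap, Eng, Vwf and Egfl7) and control 4 for the other 4 (Pecam1, Cdh5, Tie1 and Esam), so no cHET library was the highest for any gene. Control 2 was at the same time the lowest library for Cdh5. Within control 2, Emcn, Egfl7, Plvap and Vwf lay 0.54, 0.59, 0.50 and 0.74 above their own means on the log2 scale while Cdh5 lay 0.71 below. The ratio of Cdh5 to Egfl7 showed this directly: 0.503 and 0.399 in control 1 and control 2, 1.21 and 1.45 in control 3 and control 4, and 1.12 to 1.53 in cHET. Over the 8 libraries Pearson's r of log2(FPKM + 1) was 0.93 between Emcn and Egfl7 and -0.88 between Cdh5 and Egfl7, as a description of libraries that share their depth and cell content. The 10 genes summed to 322 to 382 FPKM in control and 311 to 332 FPKM in cHET, with 362 ± 26.8 and 324 ± 9.36 FPKM as means (SD, n = 4). Control 1, at 322 FPKM, lay within the cHET range and the other 3 controls above it. Summed FPKM over all genes was 450265 and 467217 in control 1 and control 2 and 353291 to 392047 in the other libraries. As a share of that sum the 10 genes made 0.0716% to 0.105% in control and 0.0814% to 0.0884% in cHET. By share, the cHET libraries thus lay inside the control range.

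**Figure D2:**
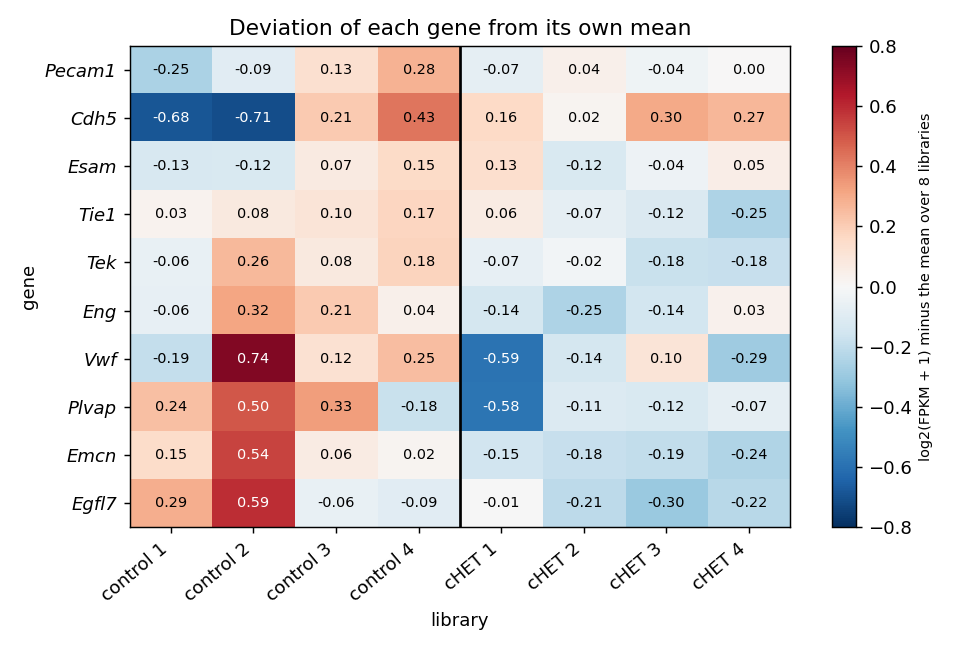
Deviation of log2(FPKM + 1) of each gene (rows) from its mean over the 8 libraries (columns), with the value printed in each cell, red above and blue below the mean. Cdh5 is at -0.68 and -0.71 in control 1 and 2, where Egfl7 is at 0.29 and 0.59. Emcn, Tek, Plvap and Egfl7 are below 0 in all 4 cHET libraries.

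The protein-coding genes outside the set whose log2(FPKM + 1) over the 8 libraries was most like the mean of the 10 were Cdh11 (Pearson's r 0.96), Tmem100 (0.96), Tgfbi (0.95), Enpp6 (0.93) and Derl1 (0.93). Of these 5 genes only Tmem100 is on a list used here, that of the endocardium. These are the highest Pearson values among the protein-coding genes tested and describe likeness over 8 libraries alone. By ranks the order differed, with Spearman's rho of 0.98 for Enpp6, 0.83 for Tmem100, 0.79 for Cdh11, 0.71 for Tgfbi and 0.69 for Derl1.

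Abundance per length, in FPKM, gave an order in which each pair of neighbours kept its places in 6 to 8 of the 8 libraries. Eng, Cdh5 and Egfl7 were the most abundant, at 75.8 ± 10.4, 60.5 ± 16.4 and 59.4 ± 13.9 FPKM (SD over the 8 libraries), and these neighbours differed by less than the larger SD. Tie1, Esam and Pecam1 followed at 32.8 ± 3.12, 30.5 ± 2.58 and 28.9 ± 3.32 FPKM, again closer than their spread. Plvap (23.2 ± 5.65 FPKM), Tek (16.6 ± 1.98), Emcn (10.6 ± 2.30) and Vwf (4.42 ± 1.602) each differed from the gene next above by more than the larger SD. Egfl7 lay above Tie1, Tek above Emcn and Emcn above Vwf in all 8 libraries.

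**Figure D3:**
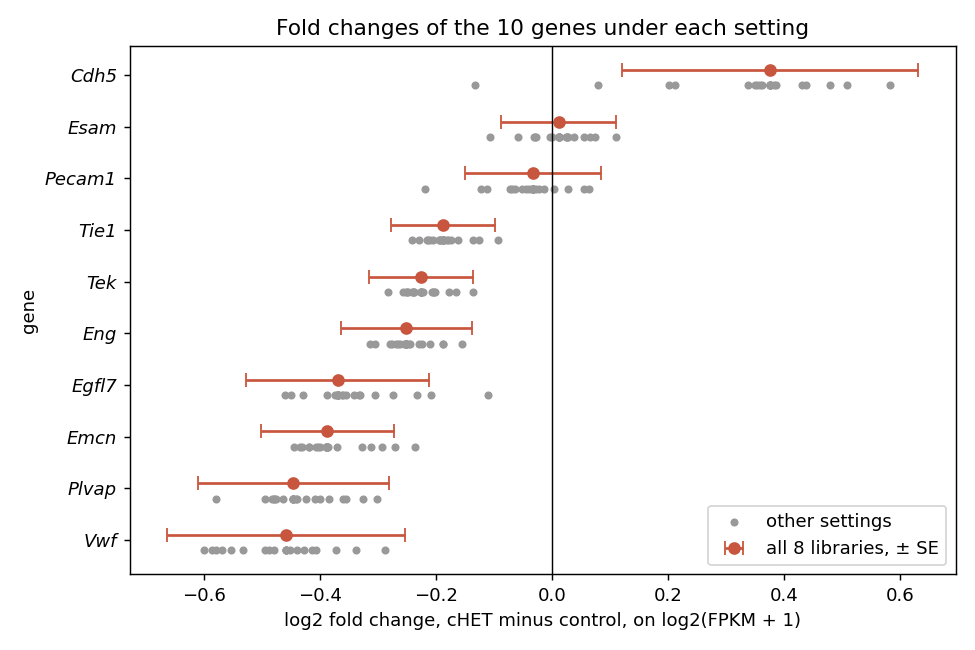
Log2 fold change of each of the 10 genes (rows), cHET minus control, on the scale of log2(FPKM + 1). Red points and bars are the fit over all 8 libraries ± SE, and grey points are the other settings tried, among them each library left out. Points for Tie1, Tek, Eng, Egfl7, Emcn, Plvap and Vwf are below 0 in every setting, those of Cdh5 run from -0.13 to 0.58, and those of Pecam1 and Esam lie on both sides of 0.

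Other genes expressed across the endothelium were centred near 0. All 25 genes of a second pan-endothelial list, among them VEGF receptors, ETS and Sox factors and surface proteins, were tested, and 0 were called in either direction (limma). Their median log2 fold change was 0.0031, with 13 above 0 and 12 below, beside -0.24 for the 10 genes described and 0.0086 over all genes. Over the settings tried it ran from -0.047, without control 1 and control 2, to 0.097, under TPM. Under TPM the median over all genes was itself 0.094. Kdr, which encodes the main VEGF receptor, had 12.5, 9.62, 17.8 and 21.7 FPKM in control and 18.4, 16.5, 21.9 and 21.9 FPKM in cHET. Like Cdh5 it was lowest in control 1 and control 2, and its log2 fold change was 0.39 with limma (adjusted p = 0.638, SE 0.220). At an unadjusted p under 0.05 limma gave 1 of the 25, the blood and endothelial transcription factor gene Tal1, at -0.26. By that rule 3.92% of all genes were lower and 5.03% higher, so this count was near the share over all genes. Ramp2 (-0.30) and S1pr1 (0.31), 2 receptor genes of the endothelium, had opposite signs (limma, adjusted p = 0.563 and 0.572). Fold changes of the 2 lists were not tested against each other.

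The genes named for a part of the endothelium differed from list to list. Of 6 endocardial genes, 4 passed the filter, all 4 were below 0 and their median was -0.61, with 0 called. Npr3, a receptor that clears natriuretic peptides and marks the endocardium, had 7.41, 10.2, 9.25 and 8.31 FPKM in control and 5.01, 5.87, 4.40 and 4.22 FPKM in cHET, so that its groups did not overlap (log2 fold change -0.74; limma, adjusted p = 0.207). Of all genes 2% were separated in this way as lower and 2.74% as higher. Tmem100, which responds to BMP signals in endothelium, had 7.25, 12.5, 11.5 and 10.8 FPKM in control and 6.32, 8.26, 7.01 and 6.94 FPKM in cHET. Control 1 alone lay within the cHET range, and the log2 fold change was -0.48 (limma, adjusted p = 0.433). Cytl1 was at -0.90 and rested on control 1 and control 2, with 20.9 and 24.9 FPKM against 3.83 to 9.11 FPKM in the other 6 libraries. Without control 1 and control 2 the median of the 4 endocardial genes was -0.42. The capillary list (8 of 8 genes tested) had a median of -0.011, the arterial list (9 of 10) 0.050 and the venous list (5 of 7) 0.078, with 0 genes called in each (limma). The sign of these 3 medians was not stable over the settings, with ranges of -0.072 to 0.085, -0.086 to 0.15 and -0.051 to 0.18. Each upper end was under TPM, where the median over all genes was 0.094. Among the genes of these 3 lists, at an unadjusted p under 0.05 (limma), stood the capillary factor gene Tcf15 (0.31) and the Notch ligand gene Dll4 (0.32). Both had higher means in cHET, and 5.03% of all genes were higher by that rule. The groups of Tcf15 did not overlap, with every cHET library above every control library, as in 2.74% of all genes, while those of Dll4 overlapped. The lymphatic list had a median of -0.22 over 5 of 7 genes, with 0 called (limma), which rested on single libraries: it was -0.079 without control 2, -0.057 without cHET 3, -0.029 without cHET 2 and 0.0026 without cHET 4. Its gene with the smallest p, Lyve1 (-0.53), is also made by cardiac macrophages.

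**Figure D4:**
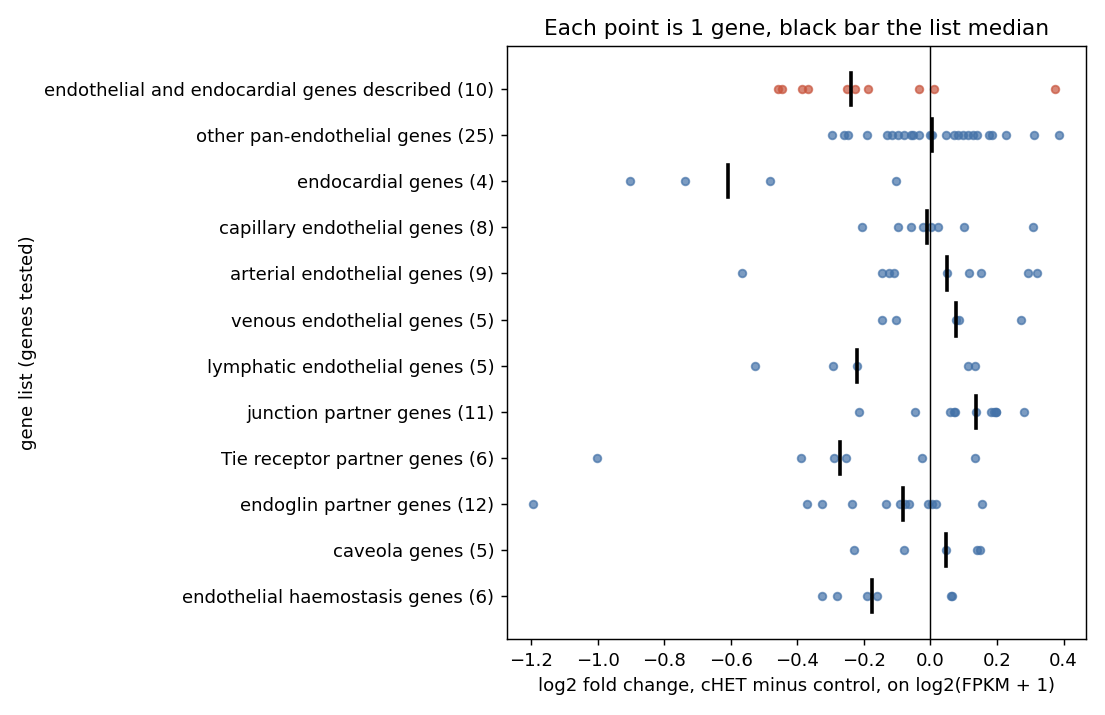
Log2 fold change of every tested gene (points) in the 10 genes described (red) and in 11 other lists of endothelial genes and their partners (blue), cHET minus control on the scale of log2(FPKM + 1). Black bars are list medians, which are -0.24 for the 10 genes, 0.0031 for the other pan-endothelial genes and -0.61 for the 4 tested endocardial genes.

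Partners of the 10 genes in their pathways did not pass the test either. Of the Tie receptor partners 6 of 7 were tested, 5 were below 0 and 0 were called (limma), with a median of -0.27. Angpt1, the activating ligand of Tie2, had 5.76, 9.84, 8.92 and 4.95 FPKM in control and 4.05, 5.18, 2.31 and 1.62 FPKM in cHET. Control 4 lay within the cHET range and the log2 fold change was -1.0 with limma (adjusted p = 0.401, SE 0.293). Angpt2, the ligand that opposes Angpt1 in many settings, had -0.26 and the adaptor gene Grb14 -0.29 (limma, adjusted p = 0.634 and 0.430). Of 14 endoglin partners, receptors, Smads, Id genes and ligands, 12 were tested, 9 were below 0 and the median was -0.084, with 0 called (limma). Under TPM their median was 0.013, beside 0.094 over all genes. The junction partners, catenins and tight junction genes, had a median of 0.14 with 9 of 11 above 0 and 0 called (limma). This rested on control 1 and control 2: the median was 0.053 without the first, 0.052 without the second and -0.075 without both, where 9 of 11 were below 0. With library weights it was -0.029. Ctnna1 and Ctnnb1, the catenins that tie cadherins to actin, had 151 and 66.2 FPKM in control 1 and 151 and 62.8 FPKM in control 2, below all other libraries as Cdh5 was. Both are also expressed by cardiomyocytes. The caveola genes (5 of 5 tested) had a median of 0.047 and the haemostasis genes (6 of 8) -0.18, with 0 called in each (limma), and the latter was -0.077 without cHET 3 and -0.11 without control 2. Among these Tfpi, the inhibitor of the tissue factor pathway, had 21.2, 18.4, 19.2 and 17.7 FPKM in control and 15.8, 16.0, 17.1 and 13.5 FPKM in cHET. Its groups did not overlap, with a log2 fold change of -0.28 (limma, adjusted p = 0.441). Of all genes 2% were separated in this way as lower in cHET.

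Markers of other cell types also varied between the libraries. The median log2 fold change of each list was below 0 (limma), with 0 genes called. The lists had -0.55 for neutrophil, -0.54 for epicardial and mesothelial, -0.41 for macrophage and fat, and -0.35 for platelet and megakaryocyte markers. Atrial markers had -0.93, fibroblast -0.18, red cell -0.10, cardiomyocyte -0.078, and smooth muscle and pericyte markers -0.038. A median below 0, as in the 10 genes (-0.24), was thus not particular to them. Macrophage markers, of which all 8 were detected in every library, summed to 77.7 to 154 FPKM in control and 59.8 to 88.4 FPKM in cHET. Epicardial and mesothelial markers (8 of 8 detected) summed to 64.2 to 111 and 44.2 to 64.7 FPKM, and neutrophil markers (5 of 5) to 8.54 to 74.1 and 9.82 to 16.4 FPKM. Control 2 was the highest library for each of these 3 lists. It was also highest for cardiomyocyte, smooth muscle and pericyte, platelet and megakaryocyte, and red cell markers, but not for atrial, fibroblast or fat markers. Summed FPKM over all genes was highest there too, at 467217. Emcn, Plvap, Vwf, Eng, Tek and Egfl7 also had their highest value in control 2. Atrial markers (4 of 4) summed to 1459 to 5117 FPKM in control and 241 to 5277 FPKM in cHET, with the lowest value in cHET 3. Emcn stood at 8.99 FPKM in that library, between its values in cHET 2 and cHET 4. Of the 10 genes, Egfl7 alone had its lowest value there, at 47.1 FPKM. Fibroblast markers (8 of 8) summed to 511 to 761 and 467 to 757 FPKM, and smooth muscle and pericyte markers (8 of 8) to 445 to 883 and 524 to 852 FPKM. Red cell markers (6 of 6) ranged from 1024 to 8414 and from 1597 to 2541 FPKM. The brown fat gene Ucp1 had 17.8 and 16.7 FPKM in control 1 and control 2, 6.56 FPKM in cHET 2 and 1.62 FPKM or less elsewhere. The part of these cells in the values of the 10 genes was not tested.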

How the data were processed

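RNA selected on poly-T beads, per the labels' protocols, was sequenced from 8 hearts' libraries. The authors deposited FPKM values for 54532 genes, with the gene length used. The submitters' processing notes name build mm9 and list featureCounts 1.5.0-p3, HISAT2 2.0.5 and DESeq2 1.20.0 without roles. Start and end matched GENCODE M21 for 98.3% of 54409 shared gene identifiers, so coordinates are on GRCm38. Rebuilt reads were whole within 0.05 reads for 100% of values.

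Genes with a mean of at least 1 FPKM (13029) entered limma 3.58.1 (R 4.3.3, trend and robust) as log2(FPKM + 1), two-sided, cHET against control, with Benjamini-Hochberg adjustment. A fold change on this scale understates that of low genes. Pairs of libraries within a group differed by 16.9 or more in chi-square per gene, so each counted as 1 replicate. The fit used all 8 libraries and was tested on simulated data. Alternatives were another pseudocount, filters, scalings, variance models, library weights, voom on rebuilt reads and a replicate block. Further ones were sex (read from Xist and Ddx3y) as a covariate, a fit of the protein-coding genes only, and libraries left out. Ddx3y lay above Xist in control 1, control 3 and cHET 1, which were read as male. Every other library was read as female, so the sexes were not balanced between the groups.

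The 10 genes, the lists, the tests and the alternatives were chosen with earlier results of these data known. All 10 are named. From each other endothelial list the 3 genes of smallest p and the 2 of highest mean may be named, with Mrps5, genes that overlap the 10 and the 5 most alike in profile. Kdr, Angpt2, Ucp1, Gp1bb, Gp9, Ppbp and Gp1ba lie outside this rule and were chosen after their values were seen.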

Additional observations from a re-analysis of the deposited data

Results flagged for a closer look

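Plvap in cHET 1, at 14.7 FPKM, lay far below the other 3 cHET libraries, which had 20.7 to 21.4 FPKM. The gap to its neighbour was a larger part of the group's range than Dixon's 95% critical value for 4 samples, a limit that chance passes in about 1 in 20 groups, and 20 groups were examined. Without cHET 1 the log2 fold change of Plvap was -0.33.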

How the results depend on the processing

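None of the 10 genes passed the limma test in any of the 22 other settings, and Tie1, Tek, Emcn, Plvap, Eng, Vwf and Egfl7 were below 0 in each setting that tested them. The median of the 10 was -0.30, without control 1, to -0.15, under TPM. The median over all genes was itself 0.094 under TPM and 0.061 with libraries scaled without the mitochondrial genome. In the main fit it was 0.0086. The count of genes with separate groups, 1 as reported, was 2 under TPM, 2 with libraries scaled without the mitochondrial genome, 3 with the trend on gene length removed, 6 without control 1 and control 2, and 1 to 5 with 1 library left out. All were lower in cHET, and of all genes 1.13%, 1.33%, 2.39%, 8.17% and 2.56% to 5.39% were so separated in these settings. The setting that removes the trend on gene length was chosen after seeing the data. Among the 11 other lists 0 genes were called, and 1, the endocardial gene Npr3, with library weights. Signs near 0 changed: Pecam1 had 0.064 under TPM, 0.028 without the mitochondrial genome, 0.0030 without control 3 and 0.055 without control 4, in a range of -0.12 to 0.055 with 1 library left out. Cdh5 had -0.13 without control 1 and control 2. Esam had -0.058 with library weights, -0.029 without control 1, -0.027 without control 2, -0.031 without cHET 1, -0.0044 without cHET 4, in a range of -0.031 to 0.065 with 1 library left out, and -0.11 without control 1 and control 2. List medians changed sign too. The arterial one was -0.086 without cHET 2, -0.053 without control 4, -0.017 without cHET 1, -0.0016 without control 1, -0.025 with library weights and -0.061 without control 1 and control 2. The venous one was -0.051 with no filter on low values, the lymphatic one 0.13 at a mean of at least 5 FPKM and the junction partner one -0.075 without control 1 and control 2. Mrps5 was between -0.30 and 0.041 with 1 library left out, and 0.041 without control 1. For all these sign changes the cause was not tested. Same-numbered libraries of the groups deviated together with correlations of 0.052 to 0.29 across genes, and 3 of 4 controls correlated best with their own number. The labels do not say which libraries share a litter, so the numbers were not taken as pairs, and with the replicate number as a block 0 of the 10 genes passed, the median was -0.24, Emcn was at -0.39 and Mrps5 at -0.13. Over all genes limma called 3 higher and 0 lower, and 1 higher with the block or at a mean of at least 5 FPKM, 6 higher under TPM, and 8 higher and 3 lower with library weights. With sex as a covariate the median was -0.26 and Vwf was at -0.59 (limma, unadjusted p = 0.00364, adjusted p = 0.524). Vwf was not tested at a mean of at least 5 FPKM.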
